A study of Mus musculus with 3 samples.

Results

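The HOX genes are 39 protein-coding genes in 4 clusters, and they were taken here as every protein-coding gene of mouse whose symbol is Hox with a cluster letter from a to d and a number. They were 39 of 21938 protein-coding genes on the main chromosomes, with 11 in HOX A, 10 in HOX B, 9 in HOX C and 9 in HOX D. Chromatin was read in long-term hematopoietic stem cells (LT-HSCs), sorted from the c-Kit enriched bone marrow of wild-type female C57BL/6 mice aged 24 months. The sort kept cells without lineage markers, with Sca-1, c-Kit and CD150, and without CD48 and CD34. The cells went through DOGMA-seq, an assay of open chromatin (ATAC), RNA and antibody tags in single cells. There was 1 pool of cells and 1 library for each assay, and the ATAC and antibody libraries were used here.

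HOX genes encode transcription factors with a homeodomain. They lie in order along each cluster, so that genes at one end (low paralogue numbers) are used towards the head of the embryo and genes at the other end towards the tail. In the body of the animal most tissues keep the clusters under Polycomb repression, which lays H3K27me3 over CpG-rich DNA, while Trithorax complexes with Kmt2a keep parts of them active. In blood stem cells members of HOX A and HOX B are known for roles in self-renewal, and HOX A genes are driven to high levels in leukemias with KMT2A fusions.

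Of 3724 cells with antibody counts, 3629 held at least 10 tags and were kept. They held 38554133 nuclear fragments, from 3859 to 45151 a cell with a median of 10300. An ATAC fragment is a stretch of DNA cut out by the transposase at 2 open positions. Density here means fragments per kb of DNA and per 1000000 nuclear fragments, and its mean over the chromosomes was 0.366. Because 1 pool was measured, no test between groups was possible and no spread between animals was known. The intervals given are exact 95% intervals (Poisson for a density, binomial for a share of cells, conditional binomial for a ratio) and cover counting error only. The label of the cells was compared with marker promoters. The 8 HSC markers had a median density at the 65.3rd percentile of coding genes, from Slamf1 at 2.14 to Kit at 21.9. The medians of 5 T cell, 5 myeloid and 5 B cell markers lay at the 29.1st, 35.3rd and 38.4th percentiles, with Cd3e at 0.272 and Mpo at 0.778. The 5 megakaryocyte markers lay at the 56.0th percentile, from Ppbp at 0.415 to Itga2b at 10.8, and 5 erythroid markers at the 45.8th. Over gene bodies plus 2 kb upstream the HSC markers lay at the 62.2nd percentile, below the myeloid markers at the 65.9th and the megakaryocyte markers at the 95th, and above the T cell, erythroid and B cell markers at the 32.2nd, 39.8th and 40.7th.

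All 4 clusters stood above the chromosomes around them, and HOX A stood above the other 3. Each cluster was measured from 2 kb before its first gene to 2 kb after its last. HOX A had a density of 4.03 (3.97 to 4.09; 16983 fragments over 109 kb of chromosome 6). HOX B had 2.12 (2.09 to 2.16; 14568 fragments over 178 kb of chromosome 11), HOX C had 2.08 (2.03 to 2.12; 9585 fragments over 120 kb of chromosome 15) and HOX D had 1.92 (1.88 to 1.96; 7458 fragments over 101 kb of chromosome 2). The interval of HOX A lay above those of the other clusters, the intervals of HOX B and HOX C overlapped, and that of HOX D lay below both. Together the clusters took 0.126% of nuclear fragments in 0.0186% of the chromosomes, which is 6.77 times the mean density. In HOX B a stretch of 70.0 kb between Hoxb9 and Hoxb13 holds no other member and had a density of 1.0, while the part from Hoxb1 to Hoxb9 had 2.89.

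The signal lay in separate peaks over a raised floor. In windows of 1 kb, the median density inside the cluster was 3.01 for HOX A, 1.38 for HOX B, 1.79 for HOX C and 2.00 for HOX D. The 100 kb on either side had medians between 0.104 and 0.467. The highest window of a flank was between 3.14 and 9.68, except that 1 window before HOX D reached 22.3, above every window of HOX B, HOX C and HOX D. The highest window reached 30.2 in HOX A, 17.0 in HOX B, 20.5 in HOX C and 9.96 in HOX D. Windows above 10 numbered 17 in HOX A, 8 in HOX B, 2 in HOX C and 0 in HOX D. The 10 highest windows held between 26.5% (HOX B) and 35.1% (HOX A) of the cluster's fragments.

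**Figure D1:**
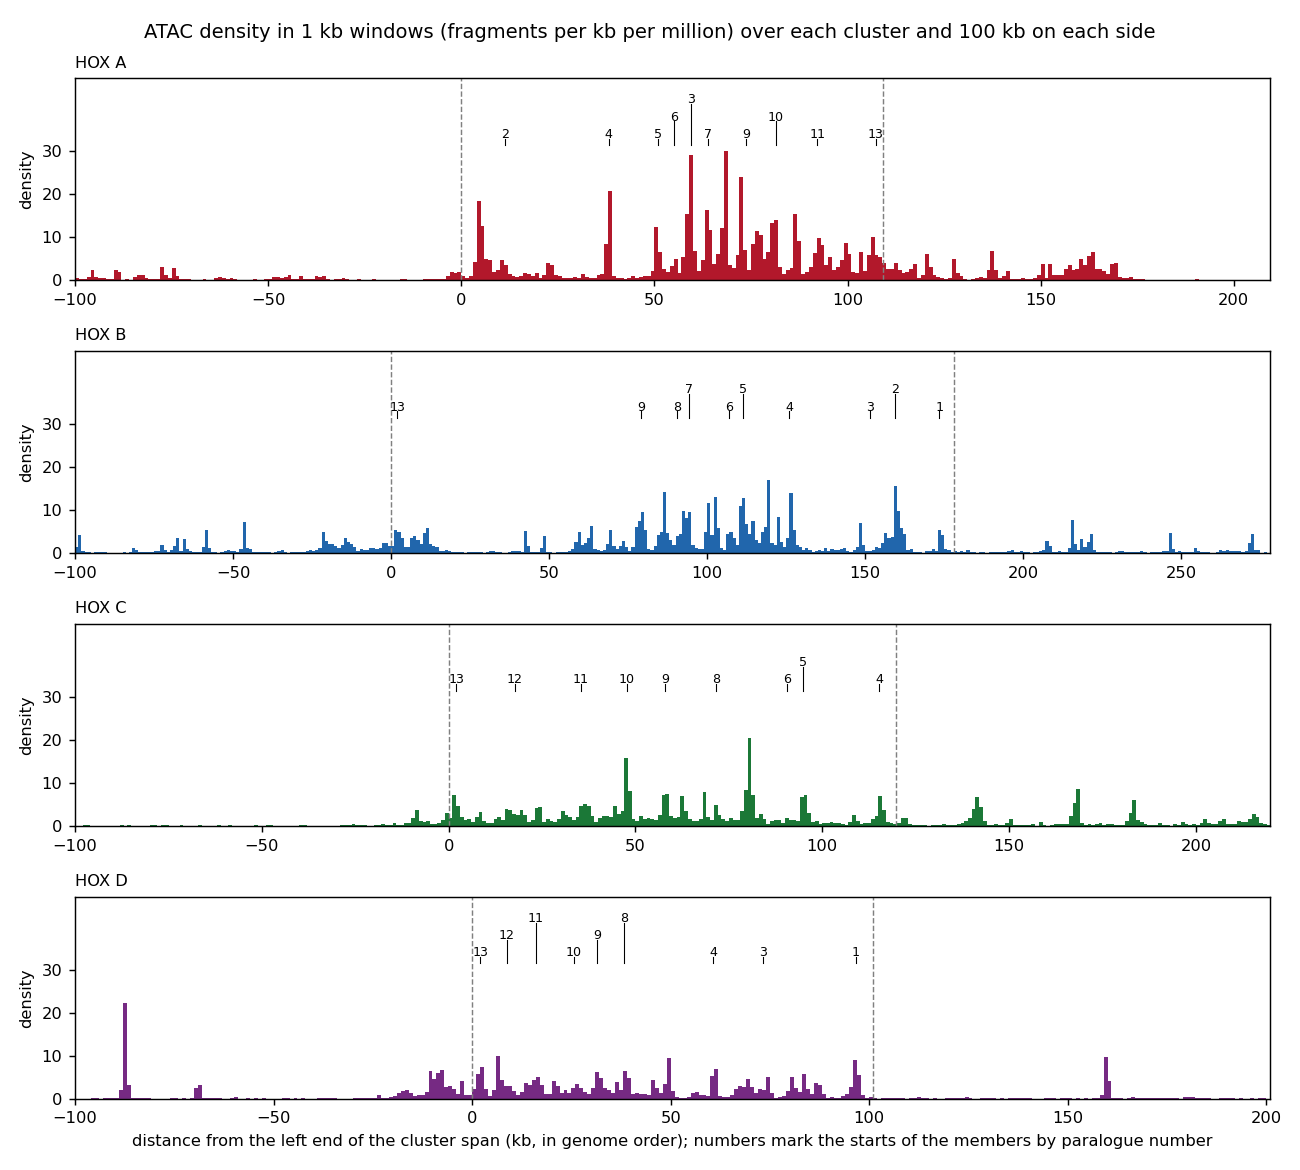
Density in 1 kb windows (vertical axis, scaled to kb and to depth as in the text) against distance in kb from the left end of each cluster in genome order, with 100 kb on each side and dashed lines at the cluster ends. Numbers mark the starts of the members by paralogue number, with 1 member not marked. HOX A holds 17 windows above 10 and reaches 30.2, while no window of HOX D passes 10 and 1 window in the flank to its left reaches 22.3.

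The strongest places in the clusters were located in windows of 300 bases, scored by fragments with an end (a transposase cut) inside them. A fragment with both ends inside counted once, so the ends given below are numbers of fragments, not of cuts. In HOX A the strongest lay 274 bases upstream of the Hoxa3 start, with 909 ends in 774 cells (21.3% of cells, 20 to 22.7) and 23.3 times the ends of the median window of the cluster. All 300 bases of this window are exon of the noncoding gene Hoxaas3, and it also overlaps the coding gene model Gm28308. The next, with 884 ends, lay over another annotated coding start of Hoxa7, 4334 bases upstream of the principal one, and the third lay 1180 bases inside Hoxa9, over its coding sequence and UTR, with 765 ends. In HOX C the strongest lay in introns of the long Hoxc5 and Hoxc6 gene models, 8796 bases downstream of the Hoxc8 start and downstream of the outermost start of the Hoxc6 model, with 648 ends. In HOX D it lay 1854 bases upstream of Hoxd12, between genes, with 308 ends. Distances are from the principal start of the nearest member.

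For HOX A, HOX C and HOX D the sequence of the strongest window outside annotated UTRs is given. In HOX A, windows that overlap the 3 named above were passed over. The sequences are from the GRCm38 (mm10) genome, 5′ to 3′ on the strand of the nearest member. The HOX A window is weaker than the 3 named above and lies 186 bases upstream of Hoxa4, with 669 ends and a GC content of 76.3%. Capitals mark letters searched on both strands: TATAAA of the core promoter, AGATAA for GATA factors, CCGGAA for ETS factors, TGATTNAT for HOX with PBX, TGACAG for MEIS, CACGTG as an E box, AGGGGGC as part of the CTCF core and TGTGGT for RUNX.
HOX A window, chr6:52191790-52192089, minus strand: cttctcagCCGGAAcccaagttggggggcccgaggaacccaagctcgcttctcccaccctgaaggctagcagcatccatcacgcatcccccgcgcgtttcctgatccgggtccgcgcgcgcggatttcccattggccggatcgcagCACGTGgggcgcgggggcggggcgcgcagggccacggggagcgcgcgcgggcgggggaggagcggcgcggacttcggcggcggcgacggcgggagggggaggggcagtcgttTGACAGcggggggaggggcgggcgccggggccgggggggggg
HOX C window, chr15:102999253-102999552, plus strand: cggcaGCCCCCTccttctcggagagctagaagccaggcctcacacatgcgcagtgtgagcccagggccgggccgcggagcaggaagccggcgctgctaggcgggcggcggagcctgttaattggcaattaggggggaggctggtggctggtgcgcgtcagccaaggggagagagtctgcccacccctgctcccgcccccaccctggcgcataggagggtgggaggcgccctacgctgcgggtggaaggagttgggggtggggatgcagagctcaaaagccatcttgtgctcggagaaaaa
HOX D window, chr2:74673010-74673309, plus strand: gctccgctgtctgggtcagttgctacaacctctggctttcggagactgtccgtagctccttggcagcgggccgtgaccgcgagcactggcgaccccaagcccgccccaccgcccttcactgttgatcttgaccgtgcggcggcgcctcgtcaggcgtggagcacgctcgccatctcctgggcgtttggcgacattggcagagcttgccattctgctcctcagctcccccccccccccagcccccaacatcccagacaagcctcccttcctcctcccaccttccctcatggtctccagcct
The HOX A window held the ETS, E box and MEIS letters once each, the HOX C window held the CTCF letters once, and the HOX D window held none of the 8. Among 1692 consecutive windows of the same length over the clusters, the ETS letters stood in 6.80%, those of the E box in 4.08%, of MEIS in 12.1% and of CTCF in 7.33%. These are matches of letters, and binding was not measured.

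At their promoters the HOX genes were near the middle of all coding genes, and those with promoters rich in CpG were low for such promoters. A promoter was 1 kb on each side of the start of the principal coding transcript. The 39 HOX promoters had a median density of 5.11, from 0.506 at Hoxb3 to 16.9 at Hoxa3, against a median of 4.74 over all coding genes. These values hold for principal starts, and for some members another annotated coding start differed from them. Of the 39, 20 lay above that median, 1 lay in the highest 25% and 0 in the lowest 25%. A promoter was called CpG-rich where its GC content was at least 50% and its CpG ratio (found over the number expected from base content) at least 0.6. The 6463 CpG-rich promoters had a median density of 17.0, and the other 15475 had 1.02. Of the HOX genes 21 had a CpG-rich promoter, and 0 of these 21 reached the median of that class, while 18 lay in its lowest 25%. Their median stood at the 13.4th percentile of CpG-rich promoters. The 12 other homeobox genes of development listed for comparison were alike in level: 6 were CpG-rich, all 6 lay in the lowest 25% of the class, and their median stood at the 14.3rd percentile. HOX promoters that were not CpG-rich lay above the 1.02 of their own class, from Hoxc6 at 1.21 to Hoxa3 at 16.9, except Hoxb3 at 0.506.

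HOX A promoters were the most open of the family, with a median of 8.70 and 9 of 11 above the median of coding genes. Hoxa3 stood at 16.9 (16.0 to 17.9; a fragment in 28.6% of cells). Its principal start, however, is annotated far upstream of its coding exons, between Hoxa6 and Hoxa7 and 4.39 kb from the start of the latter. The coding gene model Gm28308 covers the same region and had 15.9 at its own start, so this signal cannot be assigned to Hoxa3 alone. The other coding start annotated for Hoxa3 had only 62 fragments, a density of 0.804 (0.616 to 1.03). Hoxa4 had 12.1 (11.3 to 12.9; 20.1% of cells). Hoxa7 had 11.3 (10.6 to 12.1) and Hoxa10, a regulator of blood progenitor growth, had 11 (10.3 to 11.8). The intervals of Hoxa4, Hoxa7 and Hoxa10 overlapped, so their order was not resolved. Another coding start annotated for Hoxa7 had 17.9 (17.0 to 18.9; 1384 fragments), higher than its principal start and than that of Hoxa3. Hoxa11, known from limb and uterus, had 8.70 (8.05 to 9.38), Hoxa5 had 7.58 (6.98 to 8.22) and Hoxa13, a gene of digits and the urogenital tract, had 6.79 (6.22 to 7.40).

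Hoxa9, a self-renewal factor of stem cells and of leukemia, had 5.96 (5.43 to 6.53; 11% of cells) at its principal start. A second coding start annotated inside the gene had 14.4 (13.5 to 15.2; 1109 fragments), so the choice of start moved Hoxa9 by more than the width of either interval. Over its whole body plus 2 kb upstream Hoxa9 had 6.58 (6.32 to 6.84), the second highest of the 39 after Hoxa7 at 7.71 (7.42 to 8.0). Hoxa6 with 3.59 (3.18 to 4.04) and Hoxa2 with 3.28 (2.89 to 3.71) were the HOX A promoters below the median of coding genes.

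HOX B promoters spread widely around a median of 5.59, with 5 of 10 above the median of coding genes. Hoxb5, whose activity has been used to mark long-term stem cells in mice, had 9.57 (8.89 to 10.3; 17.2% of cells). Hoxb2 had 9.16 (8.50 to 9.87), Hoxb9 had 8.02 (7.40 to 8.68) and Hoxb4, known to expand stem cells when overproduced, had 7.73 (7.12 to 8.37). Hoxb7 had 6.78 (6.21 to 7.39). Below the median of coding genes were Hoxb13 with 4.41 (3.95 to 4.90), Hoxb6 with 3.51 (3.11 to 3.96), Hoxb1 with 3.36 (2.96 to 3.79) and Hoxb8 with 2.71 (2.35 to 3.10). The other coding start of Hoxb6 had 6.90 (6.32 to 7.51), above that median. Hoxb3 was the lowest of the family at 0.506 (0.360 to 0.691; 39 fragments, 1.05% of cells), and its other 2 coding starts had 0.868 and 0.557.

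HOX C and HOX D promoters were lower, with medians of 4.39 and 4.24. Hoxc10, a gene of the lumbar region, was the exception at 10.3 (9.61 to 11.1; 18.2% of cells). It was followed by Hoxc9 with 6.29 (5.74 to 6.87), Hoxc13, a hair gene, with 5.18 (4.69 to 5.72), and Hoxc5 with 5.11 (4.62 to 5.64). Hoxc6 had 1.21 (0.973 to 1.48) and Hoxc12 had 2.37 (2.04 to 2.74). In HOX D the range was narrow, from 2.59 (2.25 to 2.98) at Hoxd10 to 5.92 (5.39 to 6.49) at Hoxd1. Hoxd13, the last gene of the limb series, had 5.37 (4.86 to 5.91). Hoxd9, Hoxd8, Hoxd4 and Hoxd11 lay between 4.07 and 4.61 with overlapping intervals. The other coding starts of Hoxd4 and Hoxc4 had 0.959 and 0.622, against 4.24 and 4.39 at the principal ones.

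**Figure D2:**
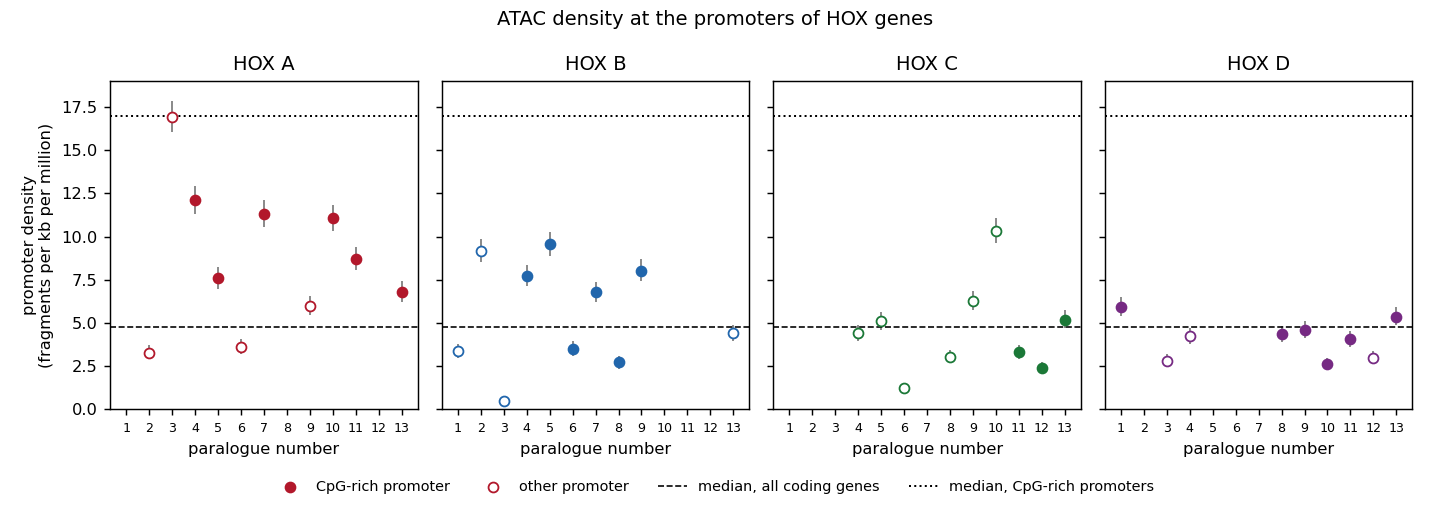
Promoter density (fragments per kb per 1000000 nuclear fragments) of the members against paralogue number, with 1 member not shown, 1 panel per cluster, with exact 95% Poisson intervals. Filled points are CpG-rich promoters, the dashed line is the median of all coding genes (4.74) and the dotted line that of CpG-rich promoters (17.0). No filled point reaches the dotted line, and the HOX D points stay within 2.59 and 5.92.

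Pooled over each group, bodies of the anterior genes of HOX A, HOX B and HOX D had a lower density than those of the posterior genes. Gene by gene, neither bodies nor promoters showed an order common to the clusters. In HOX A the bodies plus 2 kb upstream of the anterior genes (paralogues 1 to 3) had 2.99 (2.92 to 3.06), those of the central genes (4 to 8) 5.64 (5.48 to 5.80) and those of the posterior genes (9 to 13) 5.51 (5.37 to 5.64). In HOX B they had 1.77 (1.70 to 1.84), 4.06 (3.95 to 4.18) and 3.26 (3.10 to 3.43). HOX C, which has no anterior genes, had 2.25 (2.19 to 2.31) and 2.79 (2.70 to 2.88), and HOX D had 1.82 (1.75 to 1.88), 1.87 (1.78 to 1.96) and 2.56 (2.47 to 2.66). The anterior windows hold the long Hoxa3, Hoxb3 and Hoxd3 models. Among the shorter anterior genes, Hoxb2 had a body density of 5.82, at the top of HOX B beside Hoxb5 at 5.80. Hoxd1 had 3.43, while Hoxa2 had 2.22 and Hoxb1 had 2.04. The Hoxa3 window runs over central genes. The Hoxd3 window likewise covers the central Hoxd4. The window of the central Hoxc5 covers the posterior Hoxc9 and most of Hoxc10, so groups in HOX A, HOX C and HOX D share fragments. Promoter density and paralogue number had a Spearman correlation of -0.093 across the 39 genes, and of -0.282 in HOX A (n = 11), 0.042 in HOX B (n = 10), 0.133 in HOX C and -0.133 in HOX D (n = 9 each). For body density it was 0.039 across the 39 genes, 0.218 in HOX A, -0.067 in HOX B, 0.167 in HOX C and 0.3 in HOX D. These are descriptions across genes of 1 library, and neighbouring genes share open stretches. The anterior genes (n = 8) had a median promoter density of 4.64, the central genes (n = 15) 4.39 and the posterior genes (n = 16) 5.28, pooled over clusters of different level. Within HOX A the anterior median was the highest, followed by 9.45 for central and 7.75 for posterior genes. This order, like the correlation in HOX A, uses the principal Hoxa3 start, which lies between Hoxa6 and Hoxa7. With the other Hoxa3 start, at 0.804, Hoxa2 at 3.28 would be the anterior median, below the other groups. Within HOX B the medians were 3.36, 6.78 and 6.22. Paralogue group 10 reached from 2.59 at Hoxd10 to 11 at Hoxa10, and group 3 from 0.506 at Hoxb3 to 16.9 at Hoxa3. Both genes of group 12 were low, with 2.37 and 2.97, and the 3 genes of group 6 lay between 1.21 and 3.59.

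Over gene bodies plus 2 kb upstream, the HOX genes ranked higher than by promoter. Of the 39, 32 were in the highest 25% of coding genes and all lay above the median, with a median percentile of 82.7. HOX genes are short, and a short window is filled more by its promoter. Within coding genes of the same decile of window length, the median was the 70.7th percentile and 14 of 39 were in the highest 25%, of which 6 were in HOX A and 2 in HOX C. The other homeobox genes had a median of 69.0 on the same scale. Long gene models also overlap: 53.3% of fragments in member windows of HOX C lay in more than 1 window, against 16.6% in HOX A, 19.9% in HOX D and 3.72% in HOX B. Every fragment over Hoxa4, Hoxa5 and Hoxa6 also lay in the Hoxa3 window, so body values of these genes are not separate measurements. No promoter windows of members overlapped.

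Fragments from HOX promoters were longer than those from coding promoters at large. Short fragments, no longer than the DNA wound on a nucleosome core, were 26.5% of HOX promoter fragments, 42.7% of the fragments at all coding promoters and 43.9% at CpG-rich ones. The share was 30.7% in HOX A, 26.2% in HOX B, 25.2% in HOX C and 16.9% in HOX D. The other homeobox genes had 22.4%. Such a share was not particular to homeobox genes, since promoters of the myeloid markers had 14.1%, of the B cell markers 21.7%, of the T cell markers 22.1% and of the erythroid markers 25.8%, while those of the megakaryocyte and HSC markers had 34.5% and 37.2%. Among members it ranged from 7.69% at Hoxb3 to 44.1% at Hoxa5, with 41.6% at Hoxa4 and 36.7% at Hoxa3. Hoxa9, at 15.0%, was the lowest of HOX A at the promoter, while its whole window had 32.9%. Over whole clusters the shares were 28.8%, 23.9%, 21.5% and 17.6% from A to D, against 32.8% of all nuclear fragments.

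**Figure D3:**
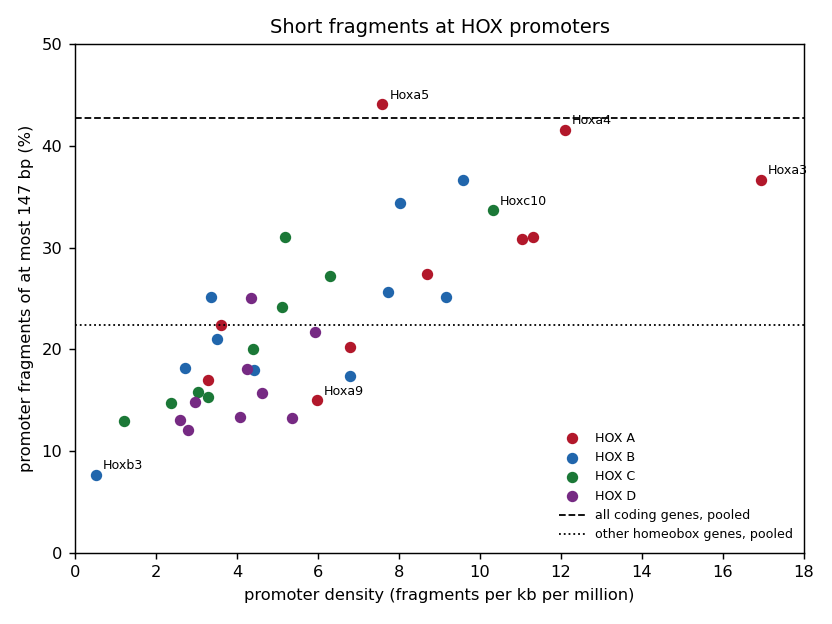
Share of promoter fragments no longer than the DNA on a nucleosome core (percent) against promoter density (fragments per kb per 1000000 nuclear fragments), 1 point per HOX gene with 1 gene not shown, coloured by cluster. The dashed line is the pooled share over all coding promoters (42.7%) and the dotted line that over the other homeobox genes (22.4%). Hoxa5 alone lies above the dashed line.

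Short sequence motifs were counted in RefSeq promoters (GRCm38, 250 bases before to 50 after the start), which were given for 22 of the 39 genes. CCAAT stood in 14 of 22 (63.6%) and in 37.9% of 27025 promoters. AGGTCA, a half-site of nuclear receptors such as the retinoic acid receptor, stood in 7 of 22 (31.8%) and in 16.0% of all. GGGCGG stood in 9 of 22 (40.9%) and in 35.9% of all, and TATAAA in 3 of 22 (13.6%) and in 14.2%. AGATAA stood in 0 of 22 and in 11.4% of all, and TGATTNAT in 1 of 22, Hoxa2, and in 3.36% of all. The E box letters stood in 4 of 22 (18.2%) and in 7.24% of all, those of MEIS in 2 (9.09%) and in 19.3%, and those of CTCF in 2 (9.09%) and in 10.5%. The ETS and RUNX letters each stood in 1 of 22 (4.55%), Hoxd12 and Hoxd10, and in 15.2% and 16.9% of all. Both strands were searched, and a match shows letters, not a bound factor.

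Genes that work with the HOX proteins were mostly more open at their promoters than the HOX genes. Over bodies plus 2 kb upstream the order was the other way, with medians of 1.46 for cofactors and 1.67 for regulators against 2.88 for the HOX genes, but their windows were longer, with medians of 141 and 30.6 kb against 5.49 kb. Within coding genes of the same decile of window length the cofactors stood at the 77.8th percentile and the regulators at the 82.1st, above the 70.7th of the HOX genes. Of 9 cofactors, homeodomain partners of the MEIS, PBX and PKNOX families, 5 were in the highest 25% of coding promoters, with a median of 14.8. Pbx3 had 23.3, Pbx4 22.6 and Meis1, a partner of Hoxa9, 15.4. Pknox1 had 0.194 at its principal start but 2.81 over its body. Of 12 regulators of HOX genes 8 were in the highest 25%, with a median of 22.8. Kmt2a, the Trithorax methyltransferase, had 39.2, and the Polycomb genes Eed, Suz12 and Ezh2 had 33.4, 28.3 and 23.5. The caudal genes Cdx2, Cdx1 and Cdx4, which set HOX levels in the embryo, had 3.32, 2.74 and 0.739.

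The 3 coding genes on each side of each cluster varied in promoter density, from 0.169 at Smug1 beside HOX C to 49.5 at Cbx3 beside HOX A. Over its body plus 2 kb upstream, however, Smug1 had 1.395, at the 64.6th percentile of coding genes. Evx1 and Evx2, homeobox genes next to HOX A and HOX D, had promoter densities of 3.36 and 3.85. Further out, Skap2 beside HOX A had 27.5, Hnrnpa1 beside HOX C had 45.4 and Lnpk beside HOX D had 11.5. Ttll6 and Skap1, on either side of HOX B, had 3.07 and 2.80.

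Most cells had fragments in most clusters. At least 1 fragment was found in 97.1% of cells for HOX A (96.4 to 97.6), 95.3% for HOX B (94.6 to 96.0), 87.7% for HOX C (86.6 to 88.8) and 82.2% for HOX D (80.9 to 83.4). If fragments fell on cells in proportion to depth, 97.9%, 96.7%, 90.5% and 84.6% would be reached. After each cell was thinned to 6000 fragments, with 242 shallower cells left out, the shares were 92.2%, 87.0%, 74.1% and 67.0%. A cell held a median of 13 HOX fragments and at most 60. Fragments in the 4 clusters were seen together in 2490 cells (68.6%), against 73.8% from depth alone. Given depth, the rank correlation between clusters across the 3629 cells was between 0.013 (A with C) and 0.056 (B with D), which at a few fragments per cell is too sparse to read.

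The study set CD61 and CD274 high with CD357 and CD27 low for platelet-biased HSCs (PLT) and the opposite for multi-lineage HSCs (MUL), so HOX density was compared across these markers. Cells above the median tag count of a marker were set against the rest. That median was 19 tags for CD274, 3 for CD61, 3 for CD357 and 1 for CD27, and only 56.5% of cells had a CD27 tag. With a median of 3 tags or fewer, a cell can easily fall on the wrong side. Ratios near 0 therefore do not show equal HOX density at different levels of a marker. For CD274 (PD-L1) the 4 clusters together had a density of 2.46 in 1728 cells above the median and 2.5 in 1901 others, a log2 ratio of -0.025 (-0.051 to 0.0008). For CD61 (integrin beta 3) they had 2.48 in 1695 cells and 2.49 in 1934, a log2 ratio of -0.0053 (-0.031 to 0.021). For CD357 (GITR) they had 2.47 in 1365 cells and 2.49 in 2264, a log2 ratio of -0.0083 (-0.035 to 0.018). For CD27 they had 2.45 in 825 cells and 2.49 in 2804, a log2 ratio of -0.028 (-0.058 to 0.0024). In each of the 4 splits the interval held 0 and stayed within 0.06 of it on the log2 scale, by counting error alone. Across cells the variance of cluster counts was 1.21 (HOX D) to 1.38 (HOX C) times that expected from depth. The intervals do not include this and are too narrow by it. With at least 50 tags, in 363 cells, they reached up to 0.129 by CD274 and 0.139 by CD27. Median depth differed little between the sides, for CD274 10269 against 10313 fragments, while median total tags were 39 against 22. Cells with an excess of overlapping sites, which doublets can give, were 9.55% against 5.21% by CD274. They were 9.97% against 4.91% by CD61, 10.5% against 5.34% by CD357 and 11.4% against 6.06% by CD27. Without those cells the CD274 log2 ratio was -0.041 (-0.068 to -0.013), which leaves out 0, and the other 3 still held 0. Of 10 alternatives the CD274 interval left out 0 under 5, also with no tag minimum (-0.054 to -0.0032), without the deepest 5% of cells (-0.065 to -0.0105), with scaling by promoter fragments (-0.063 to -0.012) and at promoters alone. These 5 intervals lay below 0 and the other 5 held 0.

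By cluster, most ratios also held 0. HOX A was lower in cells high for CD274, with 3.93 against 4.12 and a log2 ratio of -0.067 (-0.111 to -0.024). HOX D was also lower there, with 1.86 against 1.97 and -0.081 (-0.147 to -0.015). HOX B was lower in cells high for CD27, at -0.060 (-0.116 to -0.004). The other 13 of 16 intervals held 0. Splits by the remaining antibodies gave ratios of like size for HOX B. They were -0.072 (-0.12 to -0.024) by P2X7R and 0.072 (0.021 to 0.12) by CD201, and all other cluster intervals of these antibodies held 0. Under 10 alternatives the intervals of HOX A and HOX D by CD274 each held 0 under 3, and that of HOX B by CD27 under 7. The ratio of HOX A by CD274 turned above 0 with at least 50 tags, and that of HOX B by CD27 with short fragments alone.

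Among single HOX genes none passed 1.5-fold over all kept cells, counted over body windows with at least 100 fragments. For CD274, 0 of 39 members passed, where 0.266% of 16944 coding genes did. For CD61, CD357 and CD27 the counts were also 0 of 39, against 0.148%, 0.201% and 0.401% of coding genes. The lowest and highest ratios by CD274 were Hoxd1, with 3.09 against 3.74 and a log2 ratio of -0.27 (-0.52 to -0.03), and Hoxb1 with 0.23 (-0.08 to 0.54). By CD61 they were Hoxd13, with 2.34 against 2.94 and -0.33 (-0.58 to -0.08), and Hoxb9, with 4.07 against 3.45 and 0.24 (0.06 to 0.42). By CD357 they were Hoxb3 at -0.27 (-0.48 to -0.07) and Hoxb1 at 0.26 (-0.05 to 0.57), and by CD27 Hoxb3 at -0.21 (-0.44 to 0.02) and Hoxb7 at 0.16 (-0.06 to 0.38). Intervals that left out 0 were found for 3 of 39 members by CD61, where 7.92% of coding genes had one, and for 2, 4 and 0 by CD274, CD357 and CD27, where 12.4%, 7.98% and 7.02% did. These shares were near or below those of coding genes at large. With at least 50 tags, 3 of 21 members passed 1.5-fold by CD274, 1 by CD61, 1 by CD357 and 0 by CD27. Of coding genes 1.35%, 1.17%, 1.3% and 1.13% did. The ratios of Hoxd1 by CD274 and Hoxb3 by CD357 changed sign with short fragments alone, and that of Hoxb9 by CD61 with at least 50 tags.

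The PLT and MUL gates were cut here at the median tag count of each marker, and the flow cytometry gates of the paper were not reproduced. They held 342 cells (9.42%) and 61 cells (1.68%), so ratios between them were less precise. Median total tags were 37 in the PLT gate and 26 in the MUL gate, and cells with an excess of overlapping sites were 7.02% and 1.64%. The 4 clusters together had 2.48 in the PLT gate and 2.55 in the MUL gate, a log2 ratio of -0.04 (-0.15 to 0.07). With at least 50 tags the gates held 47 cells in all and the ratio was -0.30 (-0.53 to -0.08), the 1 of 9 alternatives whose interval left out 0. HOX D had 1.78 against 2.14 and -0.28 (-0.55 to 0.01), and HOX B had 2.34 against 2.13 and 0.13 (-0.07 to 0.34). Of 9 alternatives the HOX D interval left out 0 under 3: without cells with an excess of overlapping sites (-0.51 to -0.004), with scaling by promoter fragments (-0.56 to -0.0018) and with gates cut on centred log ratios (-0.40 to -0.036). The HOX C interval left out 0 under 2 and that of HOX B under 1, with no tag minimum (0.0087 to 0.37), while with at least 50 tags the HOX B ratio was -0.32 (-0.76 to 0.11). The minimum of 100 fragments was summed over gates with 3545977 (PLT) and 601242 (MUL) nuclear fragments, so PLT counts mostly decided it. It left out Hoxd8, with 41 and 15 fragments and a log2 ratio of -1.14 (-1.99 to -0.15). Hoxd11, with 74 and 4 fragments and 1.49 (0.23 to 3.56), was also left out. Of 17 members with at least 100 fragments over both gates 3 passed 1.5-fold, where 6.79% of 11567 coding genes did. They were Hoxb3, with 106 and 7 fragments and a log2 ratio of 1.27 (0.27 to 2.71), Hoxb9, with 126 and 10 fragments and 1.03 (0.17 to 2.19), and Hoxd3, with 215 and 55 fragments and -0.60 (-1.03 to -0.14). Each met the minimum by its PLT count alone. Their MUL counts were small, and the median ratio of the 17 was 0.06. Without cells with an excess of overlapping sites 1 of 12 members passed, where 3.56% of coding genes did. Hoxb9 was the one that passed, at 0.87, while Hoxb3 had 0.74 but only 91 fragments and Hoxd3 had -0.43. With no tag minimum Hoxb3 alone passed, at 0.95 (0.18 to 1.92), and Hoxb9 had 0.54 (-0.13 to 1.33) and Hoxd3 -0.33 (-0.72 to 0.08). Gates cut on centred log ratios of the tags gave Hoxd3 a log2 ratio of -0.03 (-0.35 to 0.28), Hoxb9 0.83 (0.33 to 1.36) and Hoxb3 0.56 (0.06 to 1.07).

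**Figure D4:**
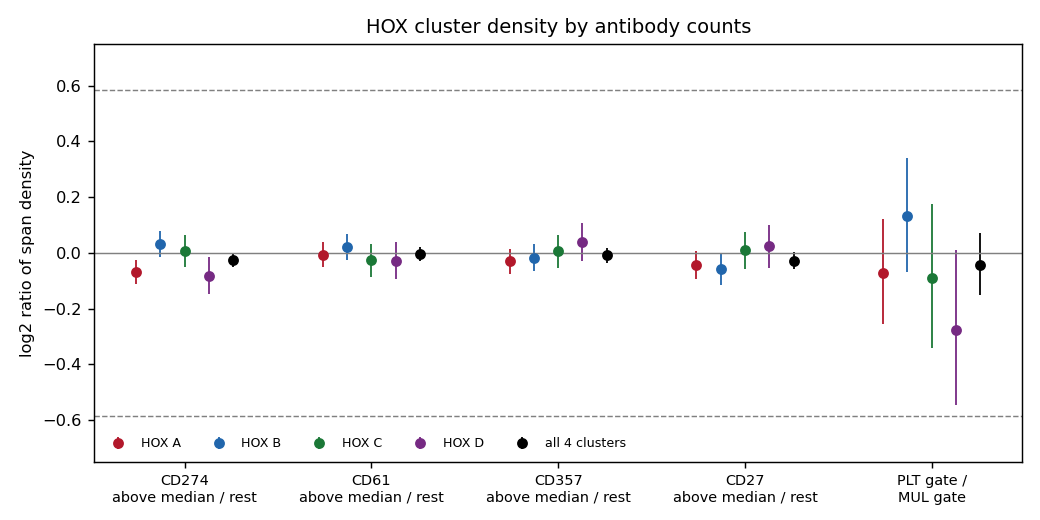
Log2 ratio of cluster density by antibody counts, for cells above the median against the rest and for the PLT against the MUL gate, with exact conditional 95% binomial intervals. Colours are clusters, black is the 4 clusters together, and dashed lines mark 1.5-fold. All points lie between the dashed lines, and the points of the 4 splits lie close to 0.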

How the data were processed

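The authors deposited counts without normalization: 1 line per ATAC fragment of a barcode, a mark of called cells, and tag counts of 12 antibodies. Per the labels and file headers, ATAC and RNA were processed with Cell Ranger ARC 2.0.2 on mm10, which collapsed duplicates and shifted fragment ends, and antibody tags were counted with CITE-seq-Count, version not given in the sources used here. No RNA was analysed here. The values of 1 member and 1 cofactor and the strongest window of HOX B are not reported here, though the genes count in the summaries. Doublets were not removed.

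Genes came from GENCODE M21. Starts were those of the principal coding transcript (best APPRIS rank, then shortest). A fragment counted where it overlapped a window, and counts were scaled by nuclear fragments. Ratios had 0.5 added to each count. The 39 members and all lists were chosen with earlier results of these data known. Named genes were taken from the members, 3 coding genes on each side of each cluster, the cofactor, regulator, homeobox and marker lists, and members past 1.5-fold or, where none passed, the highest and lowest. Intervals and ratios were tested on simulated Poisson counts, which is the sampling the intervals assume. That checks the computation and cannot show whether the intervals are wide enough for these data. Alternatives changed cell filters, scaling, fragment length, windows, splits and thresholds; promoters at the outermost gene start were added after the data were seen. Software was Python 3.11.15, numpy 2.4.6, pandas 2.3.3, scipy 1.17.1 and matplotlib 3.10.9.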

Additional observations from a re-analysis of the deposited data

How the results depend on the processing

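HOX A had the highest and HOX D the lowest density under each alternative run, though scaling by promoter fragments cannot change the order. With at least 50 tags the interval of HOX D (1.87 to 2.13) overlapped those of HOX C (1.93 to 2.18) and HOX B (2.02 to 2.22). Asking for a fragment end in the window changed no cluster density, since the windows are longer than the fragments. It repeats the main cluster ratios and is counted among the 10 and 9 alternatives above. Short fragments alone gave densities of 3.54, 1.55, 1.36 and 1.03 from A to D and a median body percentile of 74.1, log2 ratios of -0.16 for the gates and 0.037 for HOX B by CD27, 0.23 for Hoxd1 by CD274, -0.20 for Hoxb8 and 0.067 for Hoxb3 by CD357, and 1 of 3 members past the fold between the gates (9.42% of coding genes). Scaling by promoter fragments, another unit, gave 10.3, 5.42, 5.30 and 4.89. Thinning, which lowers depth by construction, gave shares of cells of 92.2%, 87.0%, 74.1% and 67.0%.

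At least 50 tags left 363 cells. HOX A then had 3.86 and HOX D 2.00, and the shares for HOX B and HOX D were 96.1% and 86.2%. The log2 ratios of the 4 clusters were 0.052 by CD274, 0.062 by CD27 and -0.30 (-0.53 to -0.08) between the gates, with 0.032 for HOX A by CD274 and -0.058 for Hoxb9 by CD61. Of 21 members 3 passed the fold by CD274, 1 by CD61 and 1 by CD357, where 1.35%, 1.17% and 1.3% of coding genes did, and no member had enough fragments between the gates. The cause was not tested beyond the lower number of cells.

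Promoters alone gave a log2 ratio of -0.052 (-0.095 to -0.01) by CD274 and -0.044 for Hoxb8 by CD357, and the highest against the lowest 25% of cells gave -0.037 (-0.071 to -0.0041) by CD357. Between the gates, members past the fold numbered 1 of 14 with no tag minimum (4.1% of coding genes), 1 of 12 without cells with excess sites (3.56%), 0 of 2 at promoters (8.73%), 11 of 39 with at least 20 fragments (14.1%), 1 of 6 with at least 200 (2.63%), and 8 of 17 at a smaller limit of 0.32 on the log2 scale (28.2%), where CD61 gave 1 of 39 (2.02%). The median promoter percentile moved by less than 5 points under each alternative run. With 1 pool, counting error is the only error measured. No paired analysis was possible because there was 1 sample per assay.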
